A study of Mus musculus with 33 samples.

Results

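The cells described here are dividing cells that carry the neutrophil precursor gene Fcnb. They were picked from single-cell RNA-seq of mouse bone, brain, liver and lung by their raw UMI (unique molecular identifier, 1 counted RNA molecule) counts. A kept cell counted as a cycling Fcnb cell if it had at least 2 UMIs of Fcnb and at least 1 UMI of Mki67 or Top2a, and did not have 5 or more UMIs of each of the early granule genes Elane, Mpo and Prtn3. Of 55366 kept cells, 1735 met the rule, which is 3.13%. These 6 genes therefore chose the cells, and their levels below are a description.

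Neutrophils arise in the marrow from granulocyte-monocyte progenitors that first make azurophil granule proteases such as elastase, then specific granule proteins such as lactoferrin, and last gelatinase granules and surface receptors. Division goes on through the promyelocyte and myelocyte stages and ends before the cells become band and segmented neutrophils. Fcnb encodes ficolin B, a lectin of the complement system made in myeloid precursors. Mki67 encodes the proliferation antigen Ki-67, Top2a the DNA topoisomerase of dividing cells, and Cebpe the transcription factor C/EBP epsilon, which is needed for specific granule genes.

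The mice had received an intracardiac injection in SAMENT, a method in which injected tumour cells carry an enzyme that tags neighbouring cells with biotin. Lungs, livers, brains, and femurs with tibias were taken after overnight substrate labelling of about 10 h, dissociated and then separated by biotin into a positive and a negative sort. Each of the 4 tissues gave 4 positive and 4 negative samples, 32 in all. All 8 groups shared the injection and the substrate, and the labels used here give no strain, age, sex or tumour line and no mouse without tumour cells. Nothing in them says which samples came from 1 mouse, so p-values measure the spread between samples. Biotin negative cells are called untagged.

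Sample totals ran from 497940 to 44874529 UMIs and kept cells per sample from 94 to 3505. The cycling Fcnb cells were deep, with a median of 21629 UMIs (1492 to 81468) and 3346 genes, against 5057 UMIs in the other kept cells. Samples with the same replicate number list the same multiplexing tags, with 1 list for both replicates 3 and 4. They share no barcode, whereas 325 barcodes recur between numbers. Of the cycling Fcnb cells 27 had a barcode that also occurred in another sample, and 1 barcode met the rule in both samples. In B and T cells, which should lack Fcnb, at least 2 Fcnb UMIs were seen in 2.04% of the 1370 such cells of bone, of which 16 met the rule. The values were 0.802% for brain, 0.208% for liver and 0.117% for lung. The median UMI count of those lymphocytes was 2884.5 in bone (median over samples), so they were far shallower than the cycling Fcnb cells.

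The label was checked first. Cebpe, which the rule did not use, had a UMI in 87.6% of the cycling Fcnb cells and in 11.2% of the other kept cells. The neighbouring groups described below came closer, with 79.7% of non-cycling Fcnb cells, 78.5% of early precursors and 57.6% of immature cells. Fcnb had a median of 9 UMIs per cell (2 to 80), and Mki67 and Top2a a median of 10 each. Both proliferation genes were present in 1444 cells (83.2%), while 118 cells (6.80%) rested on a single UMI of the pair. The specific granule genes, however, split the cells. The neutrophil granule protein gene Ngp had 100 or more UMIs in 1463 cells and fewer than 10 in 259 cells (14.9%), with 6 cells from 10 to 49 and 7 from 50 to 99.

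The 259 cells below 10 Ngp UMIs went against the label. Cebpe had a UMI in 25.1% of them against 98.5% of the 1476 cells with 10 or more, the cell surface antigen gene Ly6g in 5.41% against 74.1%, and the granulopoiesis repressor Gfi1 in 1.16% against 28.3%. The monocyte genes were on the other side. Ccr2, the chemokine receptor of classical monocytes, had a UMI in 98.1% of the low-Ngp cells against 7.93%, F13a1 in 99.2% against 29.0%, Vcan in 84.9% against 3.18%, and Irf8, a transcription factor of monocyte and dendritic cell development, in 94.2% against 5.69%. The 8-gene monocyte list reached 5 UMIs in 257 of the 259 cells and in 104 of the 1476. The low-Ngp cells kept the proliferation genes, with a median of 9 Mki67 and 10 Top2a UMIs, but had a median of 3 Fcnb UMIs against 11, and their median depth was 18876 UMIs against 22342.5. Elane and Prtn3, parts of the rule, had medians of 4 and 16 UMIs there against 0 and 3. They are called low-Ngp Ccr2 F13a1 cells below. The split was made after the values had been seen, so it carries no test, and the main results are given also without these cells.

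**Figure D1:**
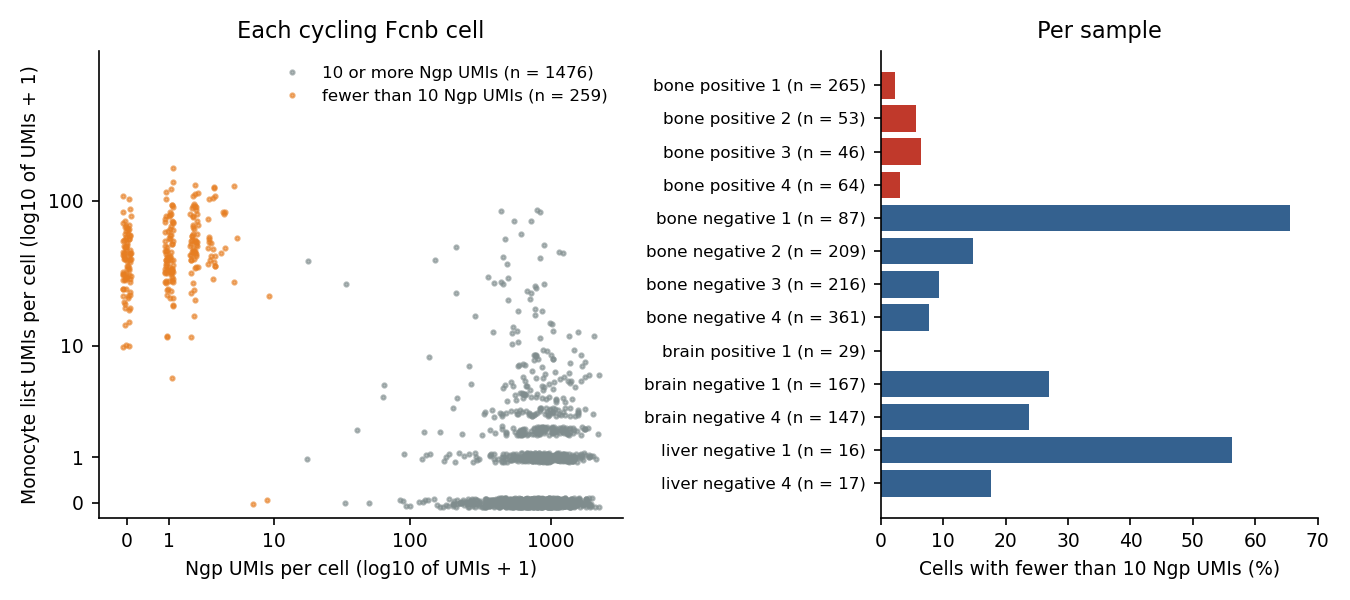
Left, each of the 1735 cycling Fcnb cells by its Ngp UMIs (x) and its summed UMIs of the 8 monocyte list genes (y), both as log10 of UMIs + 1 with a small random offset, with the 259 cells under 10 Ngp UMIs in orange. Right, the percentage of such cells in each of the 13 samples with at least 10 cycling Fcnb cells, red for biotin positive and blue for biotin negative. The cells form separate clouds, and the low-Ngp share runs from 0% in positive brain replicate 1 to 65.5% in untagged bone replicate 1.

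The low-Ngp cells were spread unevenly over samples. In untagged bone they made up 65.5%, 14.8%, 9.26% and 7.76% of the cycling Fcnb cells of replicates 1 to 4. In positive bone they made up 2.26%, 5.66%, 6.52% and 3.13%. Every positive bone sample thus lay below every untagged one, with 14 low-Ngp cells of 428 against 136 of 873. Untagged brain replicates 1 and 4 had 26.9% and 23.8%, and positive brain replicate 1 had none among its 29 cycling Fcnb cells.

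The thresholds of the rule can be read from the cells beside them. Cells with 2 Fcnb UMIs numbered 267, with a median of 121 Ngp UMIs and a Cebpe UMI in 59.9%. Cells that met everything but had 1 Fcnb UMI numbered 526, with a median of 2 Ngp UMIs and a Cebpe UMI in 43.5%. At the early granule limit, the 48 cells whose scarcest gene of Elane, Mpo and Prtn3 had 4 UMIs and the 32 excluded cells in which it had 5 were alike in Ngp (medians of 629 and 659 UMIs). In all, 1060 cells were left out by that limit alone.

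Promoter sequences are printed because the cells join the granule and the division programmes. They are the 150 bases before the RefSeq start (GRCm38.p6), and capitals mark matches on either strand. The motifs searched were CCAAT (in reverse ATTGG), the cell cycle element CHR as TTTGAA (which reads TTCAAA in reverse), an E2F core as TTTNNCGC (GCGNNAAA), and a C/EBP half-site pair as TTGCNNAA (TTNNGCAA).
Fcnb, chr2:28084879-28085028, minus strand: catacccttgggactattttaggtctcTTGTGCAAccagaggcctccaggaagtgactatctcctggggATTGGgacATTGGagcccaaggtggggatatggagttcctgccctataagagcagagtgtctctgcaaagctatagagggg
Ltf, chr9:111019142-111019291, plus strand: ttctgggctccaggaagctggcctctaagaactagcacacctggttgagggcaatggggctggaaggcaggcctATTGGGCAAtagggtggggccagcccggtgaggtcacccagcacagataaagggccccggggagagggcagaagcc
Mki67, chr7:135716380-135716529, minus strand: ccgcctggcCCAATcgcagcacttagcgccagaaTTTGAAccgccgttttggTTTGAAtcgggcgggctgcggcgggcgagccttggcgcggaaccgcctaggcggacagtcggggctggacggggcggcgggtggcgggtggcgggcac
Top2a, chr11:99024190-99024339, minus strand: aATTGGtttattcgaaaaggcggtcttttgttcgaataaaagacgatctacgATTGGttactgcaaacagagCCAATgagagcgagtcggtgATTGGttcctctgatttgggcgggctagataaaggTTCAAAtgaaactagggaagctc
Cdk1, chr10:69352913-69353062, minus strand: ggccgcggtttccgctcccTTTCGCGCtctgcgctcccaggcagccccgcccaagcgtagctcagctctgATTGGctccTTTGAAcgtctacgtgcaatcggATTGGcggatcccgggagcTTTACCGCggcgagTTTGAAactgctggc

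In the Fcnb window the C/EBP match starts 123 bases before the start, and in the Ltf window 75 bases before it, where it overlaps an ATTGG. Over the 250 bases before the start, CCAAT was found in 17 of the 24 G2/M genes with a window (70.8%) against 37.5% of all 27025 genes, and also in 12 of 21 G1/S genes (57.1%), 6 of 11 late neutrophil genes (54.5%), 4 of 8 azurophil genes (50%) and 4 of 11 specific granule genes (36.4%). CHR was found in 7 of the 24 G2/M genes (29.2%) against 18.3%. CHR was also found in the granule lists, in 4 of 11 specific granule genes (36.4%) and 2 of 8 azurophil genes (25.0%). The E2F core was found in 6 of 21 G1/S genes (28.6%) against 4.94% of all genes. The C/EBP motif was found in 5 of 11 specific granule genes (45.5%) against 10.8% of all genes, and in 0 of 8 azurophil and 0 of 24 G2/M genes. A match is a description of letters, not a bound site.

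Levels below are CPM (UMIs of a gene per 1000000 UMIs) of the summed cycling Fcnb cells of a sample, for the 13 samples that had at least 10 of them. The 15 genes furthest above the other kept cells of the same samples combined both programmes, and each was higher in 13 of 13 samples. Of the 5735 genes detected in at least 20% of the cells 6.99% were. The 15 were ranked on these same levels, and the rule required a Mki67 or Top2a UMI, so this is a description. On the log2 scale with 10 CPM added, the acute-phase protein gene Orm1 led with a difference of 2.38 (336 ± 119 CPM, SD, n = 13, against 56.3 in the other cells). The cathelicidin gene Camp followed with 2.18 (34440 ± 10365 against 7592) and Ngp with 1.79 (29879 ± 7798 against 8618). Cebpe had 1.65 (438 ± 156 against 133). The division genes among the 15 were the mitotic phosphatase Cdkn3 (1.65), the spindle gene Nusap1 (1.64), the kinetochore gene Spc25 (1.61), the midzone gene Prc1 (1.52) and the cohesin acetyltransferase Esco2 (1.51). Hmgn2, a nucleosome-binding protein, and the histone genes Hist1h2ab, Hist1h3c, Hist1h2ap and Hist1h4d were also among them, but histone genes have near-identical copies, so their counts are uncertain. Inhba, which encodes an activin subunit, was also among the 15, with 95.4 ± 33.8 CPM against 24.0.

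Specific granule genes took a large part of the RNA. The 12 genes of the list together had 61564 to 132971 CPM over the 13 samples, with a median of 109183 CPM. All 12 were detected in at least 20% of the cells. The lowest sums belonged to the samples with the highest shares of low-Ngp cells, 61564 CPM in untagged liver replicate 1 (9 of 16 cells, 56.2%) and 70075 CPM in untagged bone replicate 1 (65.5%). Azurophil granule genes together had 1962 to 3004 CPM. Of these genes the proteases Prtn3 (222 to 864 CPM) and Elane (94.8 to 343 CPM) were above Ctsg (8.42 to 67.9 CPM) and Mpo (9.83 to 53.6 CPM). Prtn3, Elane and Mpo are all in the rule, which left out cells with 5 or more UMIs of each. Only 4 of the chosen cells had 5 or more Mpo UMIs, so the order of these genes is a description. Ms4a3, a gene of granulocyte-monocyte progenitors and their progeny, had 104 to 382 CPM.

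Among the regulators, Cebpe had 207 to 714 CPM. Spi1, which encodes the myeloid factor PU.1, had 285 to 413 CPM and Cebpb 276 to 871 CPM. Cebpa, needed at the earlier progenitor step, had 1.40 to 29.5 CPM, and Gfi1 3.77 to 25.5 CPM. Mycn was at 0 in every cycling Fcnb cell. Among genes of cycle arrest, the CDK inhibitor Cdkn2d had 183 to 336 CPM and a UMI in 93.5% of cells. Cdkn1b had 38.0 to 89.0 CPM and Cdkn2c 41.5 to 70.7 CPM. The antiproliferative genes Btg1 (75.5 to 298 CPM) and Btg2 (37.5 to 252 CPM) reached the range of Cdkn2d. Of the D cyclins Ccnd3 had 270 to 379 CPM and a UMI in 98.8% of cells, whereas Ccnd1 and Ccnd2 had UMIs in 2.13% and 3.63%. Levels of different genes are CPM of a 3′ end assay, not per length, and rank genes only roughly.

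Both sides of the cell cycle were present. G1/S list genes had a UMI in 97.1% of the cells and G2/M list genes in 97.8%. More UMIs of the 28 G2/M genes than of the 25 G1/S genes were counted in 1267 cells (73.0%). This share ran over samples from 54.0% in untagged bone replicate 1 to 79.3% in positive brain replicate 1. Phase was not called from it, since the lists differ in length and level.

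The monocyte list had 54.7 to 1977 CPM, and the other marker lists had lower maxima. The B cell list had 3.22 to 62.1 CPM, the T or NK cell list 2.89 to 74.3, the macrophage list 7.31 to 229, the dendritic cell list 26.9 to 272, the erythroid list 0 to 134 and the platelet list 0 to 42.1. The hepatocyte list had 0 to 1.96 CPM. No doublets were removed. Of the 2768 cells in the top 5% of Scrublet scores (a doublet score), 144 were cycling Fcnb cells, which is 8.30% of them.

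The cycling Fcnb cells were next set beside 3 neighbouring groups of the same samples, also chosen by UMIs: 1552 early precursors with Elane, Mpo and Prtn3 at 5 or more each, 581 Fcnb cells without a Mki67 or Top2a UMI, and 3556 immature cells with Ltf and Ngp at 5 or more but neither Fcnb above 1 UMI nor a proliferation UMI. These are descriptions without a test, since the rules used expression. Means are over the 10 samples with at least 10 cells of all 4 groups.

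In cycling Fcnb cells the azurophil list was lower and the specific granule list higher than in early precursors. The azurophil list had 23615 ± 4527 CPM in the early precursors and 2479 ± 381 in the cycling Fcnb cells, and the specific granule list 26548 ± 5613 and 113443 ± 17674 CPM (SD, n = 10). Of the azurophil genes 9 of 10 were lower in each of the 11 samples compared, beside 35.8% of the 5735 genes detected in at least 20% of the cells. Elane, Mpo and Prtn3 were lower by the choice of the groups. Of the 7 azurophil genes outside the rule 6 were lower in each sample, with a sum of 1718 ± 344 against 6812 ± 1370 CPM (n = 10). The exception was Serpinb1a, an inhibitor of neutrophil proteases, with 1285 CPM against 1174. All 12 specific granule genes were higher in each of the 11 samples, beside 14.0% of the 5735 genes. Ltf, which encodes lactoferrin, had 4705 against 244 CPM and Camp 37719 against 9304. The early precursors were deeper, with a median of 35660 UMIs.

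Among these 2 groups, a Mki67 or Top2a UMI was required of the cycling Fcnb cells only, but 1523 of the 1552 early precursors (98.1%) had one too. G1/S genes had 1425 ± 346 CPM in cycling Fcnb cells against 2308 ± 253 in early precursors, and 18 of 25 were lower in every sample, beside 35.8% of all detected genes. The helicase gene Mcm6, for example, had 52.0 against 125 CPM, and the chromatin remodeller Hells 30.9 against 89.4. G2/M genes had 3533 ± 395 against 2707 ± 423 CPM, and 5 of 28 were higher in every sample, a share of 17.9% close to the 14.0% of all detected genes. With only the early precursors that had a proliferation UMI the sums there were 2314 CPM for G1/S and 2724 CPM for G2/M genes. The 5 included the centromere protein gene Cenpf (211 against 122 CPM) and the cyclin gene Ccnb2 (173 against 123 CPM). Myc, a factor of cell growth, had 1.14 against 35.3 CPM, the nuclear transport gene Ran 343 against 877 and the chromatin gene Ptma 3031 against 6385, each lower in 11 of 11 samples. Cdkn2d had 292 against 126 CPM and was higher in 11 of 11 samples, as was Ccnd3 with 327 against 195.

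Against the Fcnb cells without proliferation UMIs, the cycle lists were far higher, as the choice of these cells fixes. G2/M genes had 3533 against 92.3 ± 21.1 CPM and all 28 were higher in each of 12 samples. G1/S genes had 1425 against 103 ± 30.9 CPM and 24 of 25 were higher in each, beside 21.6% of all detected genes. The azurophil list had 2479 against 1381 ± 229 CPM, and 8 of its 10 genes (80%) were higher in each sample. The specific granule list had 113443 against 135848 ± 9535 CPM. The secondary granule gene Ltf was lower in the dividing cells in 12 of 12 samples (4705 against 8507 CPM), as were the gelatinase gene Mmp9 (115 against 641), Retnlg (876 against 3161) and Ly6g (135 against 464). Elane, a gene of the rule, was higher in 12 of 12 samples (203 against 16.9 CPM). Cebpe was also higher in 12 of 12 (463 against 351 CPM), while Cebpb had 524 against 534 CPM. The non-cycling Fcnb cells were shallower, with a median of 14454 UMIs, and the part of depth in the missing proliferation UMIs was not tested.

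The immature cells were further along the late genes. The late neutrophil list had 21726 ± 2717 CPM there and 2639 ± 440 in the cycling Fcnb cells, and 10 of 13 genes were lower in the dividing cells in each of 13 samples, beside 9.94% of all detected genes. Retnlg had 876 against 15734 CPM, Mmp9 115 against 1926 and the collagenase gene Mmp8 149 against 2416. The chemokine receptor gene Cxcr2, which draws neutrophils out of the marrow, had 85.9 against 379.7 CPM, whereas Cxcr4, which holds them there, had 67.8 against 60.1. Camp went the other way, with 37719 against 20023 CPM.

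**Figure D2:**
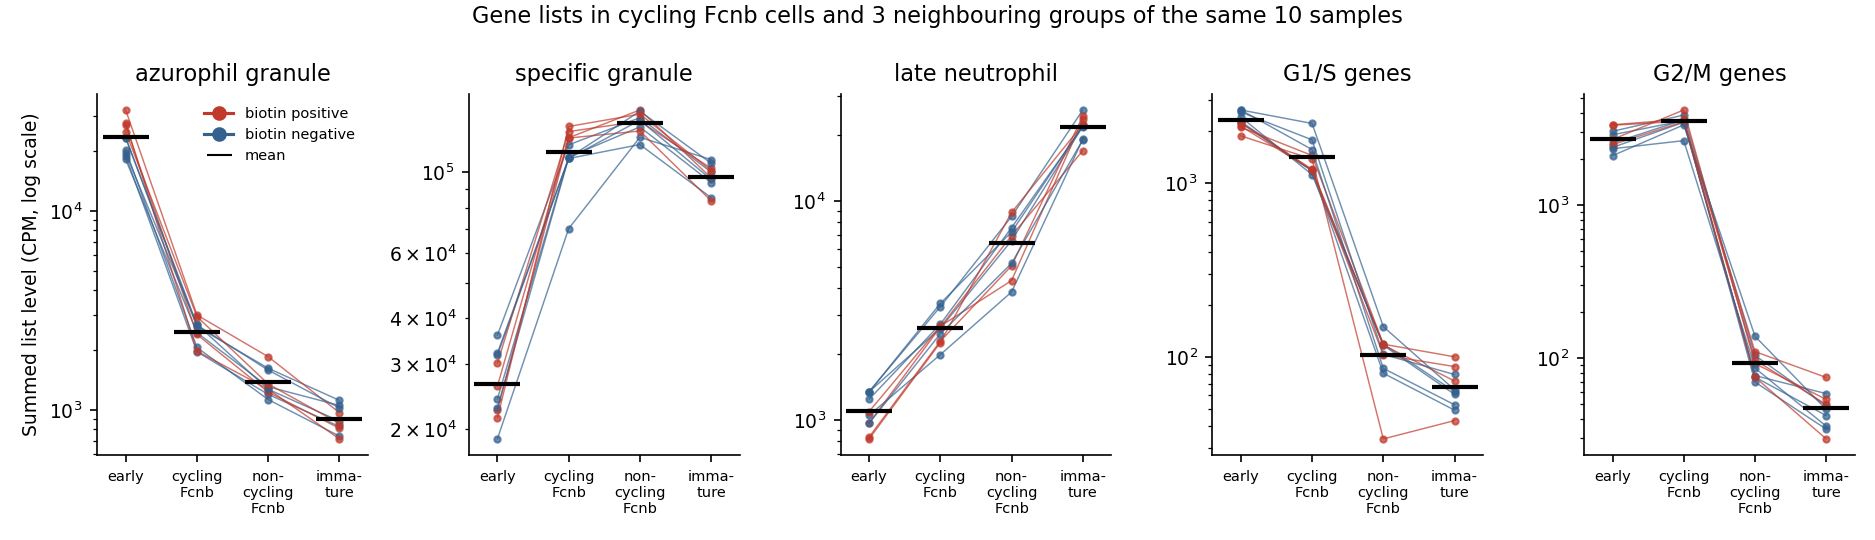
Summed level of 5 gene lists (CPM, log scale) in early precursors, cycling Fcnb cells, non-cycling Fcnb cells and immature Ltf Ngp cells of the same 10 samples. Lines join the groups of 1 sample (red biotin positive, blue biotin negative) and black bars are means. The azurophil list stands at 23615 CPM in the first group and 898 in the last, the late neutrophil list at 1100 and 21726 CPM, and the G2/M list is high in the first 2 groups only.

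Leaving out the low-Ngp cells moved the specific granule list of the cycling Fcnb cells from 113443 to 129003 ± 6211 CPM and the monocyte list from 429 ± 492 to 87.2 ± 61.0 CPM over the same 10 samples, while the azurophil list stood at 2462 ± 393. The low-Ngp cells alone had 23838 ± 2631 CPM of the specific granule list and 2483 ± 236 CPM of the monocyte list in the 6 samples with at least 10 of them. In all low-Ngp cells pooled, Lyz2 (11186 CPM) and Chil3 (7641 CPM) led the specific granule list. Camp had 61.3 CPM there against 42808 in the pooled cells with 10 or more Ngp UMIs, and Ltf 18.0 against 5374. Ngp, which made the split, had 62.3 against 36198. Lyz2 and Mmp8 went the other way, with 11186 against 4934 and 561 against 106 CPM.

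Among the 1476 cells with 10 or more Ngp UMIs, Prtn3, a gene of the rule, and Ltf ran in opposite directions. In the 9 samples with at least 40 such cells, Spearman's rho across cells between Prtn3 and Ltf per 10000 UMIs had a median of -0.676 (-0.782 to -0.543). Between Fcnb and Prtn3 it had a median of 0.546 (0.345 to 0.630), and between Fcnb and Ltf of -0.242 (-0.538 to -0.215). Between Cebpe and Ltf it lay on both sides of 0 (-0.174 to 0.109), as it did between Ltf and Camp, both specific granule genes (-0.310 to 0.181). These are correlations across cells of 1 library, which share depth and total, and Fcnb and Prtn3 are in the rule.

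When the cells of each sample were split by Ltf into 4 bins of like size, Prtn3 was at 9.30, 3.13, 1.46 and 0.874 UMIs per 10000 from the lowest to the highest bin. Elane was at 4.46, 0.882, 0.380 and 0.196. Fcnb was at 8.34 in the lowest and 5.10 in the highest bin. Cebpe stayed between 5.14 and 5.43, and Camp between 409 and 446. The neutrophil surface gene Cd177 was at 7.65 in the lowest and 12.4 in the highest bin. Mki67 was at 4.85 and 5.78 and Top2a at 4.32 and 5.42, in cells that the rule admitted only with a UMI of either, so these values say nothing of cells that had lost both. The G1/S list was at 15.8 in the lowest and 10.9 in the highest bin, and the G2/M list at 31.3 and 31.7. Median depth was 25712 UMIs in the lowest and 20307.5 in the highest bin.

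**Figure D3:**
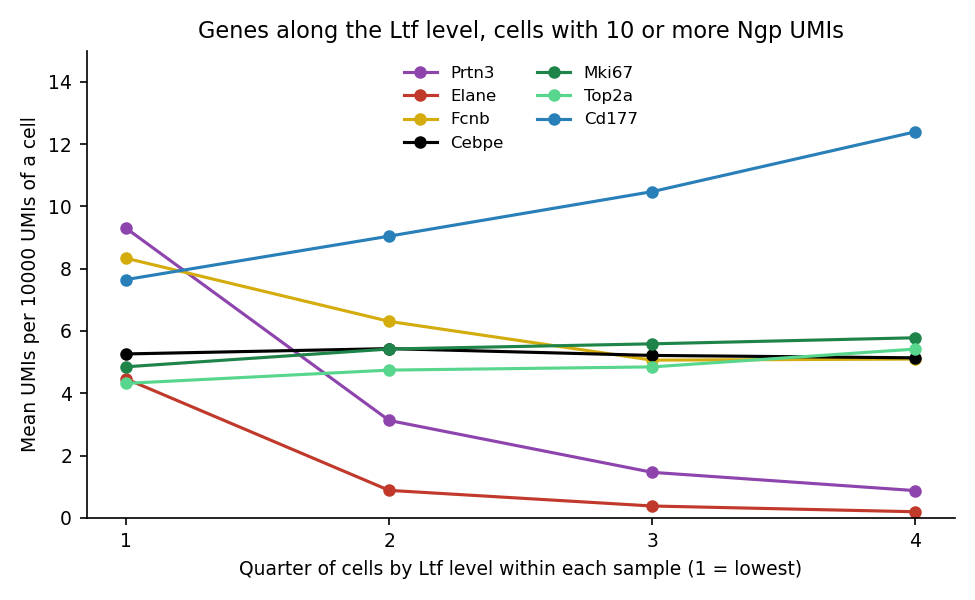
Mean UMIs per 10000 UMIs (y) of 7 genes in 4 bins of the cycling Fcnb cells ordered by Ltf within each sample (x), for cells with 10 or more Ngp UMIs (359 to 380 cells a bin). Prtn3 and Elane are at 9.30 and 4.46 in the lowest and 0.874 and 0.196 in the highest bin, Cd177 is at 7.65 and 12.4, and Cebpe, Mki67 and Top2a stay between 4.32 and 5.78.

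The cells were found mainly in bone. Bone held 1301 of them (75.0%), brain 358, liver 61 and lung 15. At least 10 were found in 13 samples, 1 to 9 in 14 and none in 5. In untagged bone the share of kept cells was 2.94%, 8.13%, 8.83% and 10.3% in replicates 1 to 4. In untagged brain it was 8.15%, 0.137%, 0.455% and 5.15%, so replicates 1 and 4 lay within the range of bone. In untagged liver it was 0.475%, 0.321%, 0.450% and 1.34%, and in untagged lung 0.0724%, 0%, 0% and 0.195%. The lung samples at 0 allow shares of up to 0.119% and 0.135%.

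Untagged bone averaged 7.55% ± 3.20 (SD, n = 4) against 1.40% ± 2.56 (n = 12) in the other untagged tissues, 6.15 percentage points more (two-sided exact permutation test over 1820 assignments, p = 0.00385). Bone was above the other tissues in the mean, but the samples overlapped. The exact sign-flip test paired by replicate number gave p = 0.125, the smallest that 4 pairs allow. With only cells of 10 or more Ngp UMIs the difference was 5.34 (n = 4 and 12, exact p = 0.0033).

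**Figure D4:**
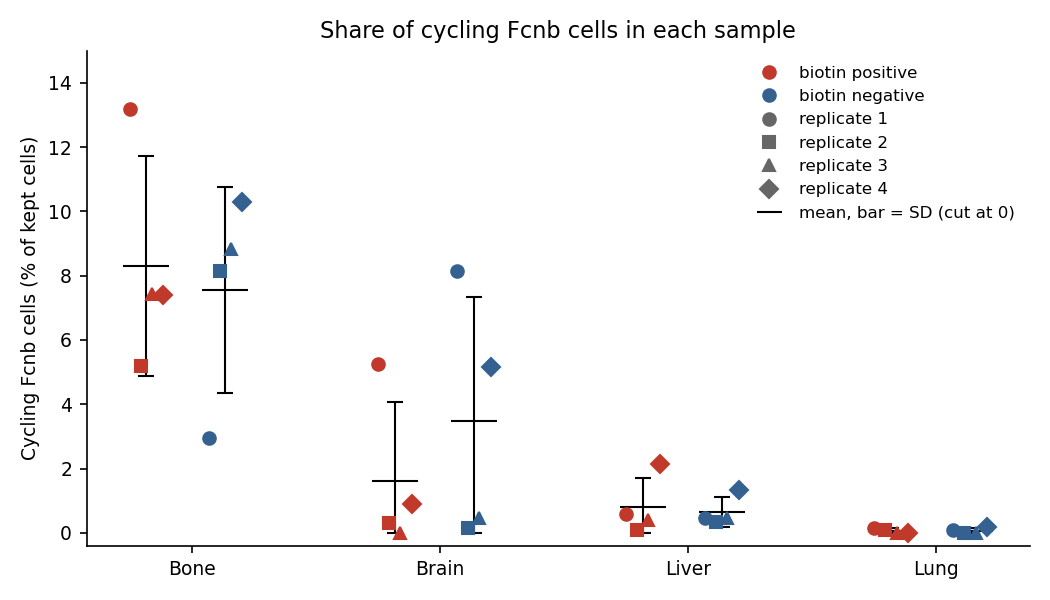
Percentage of kept cells that were cycling Fcnb cells (y) in each of the 32 samples by tissue, with the marker shape for the replicate number, red for biotin positive, blue for biotin negative, and the mean with its SD (cut at 0) in black. Bone samples lie between 2.94% and 13.2%, brain samples between 0% and 8.15% with replicate 1 the highest in each sort, and lung samples at 0.195% or less.

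The comparison of sorts asked whether these precursors were more or less common among tagged cells. In positive bone the share was 13.2%, 5.19%, 7.42% and 7.40% in replicates 1 to 4, which overlaps the untagged range. The means were 8.30% ± 3.43 and 7.55% ± 3.20 (SD, n = 4 each), so the positive sort was 0.750 points higher (exact permutation p = 0.80). With only cells of 10 or more Ngp UMIs it was 1.61 (exact p = 0.514, n = 4 each). The sign rested on single samples: the difference was -0.882 without positive replicate 1 and -0.787 without untagged replicate 1. In positive brain the shares were 5.25%, 0.296%, 0% and 0.897%, with means of 1.61% ± 2.46 against 3.47% ± 3.87 (n = 4 each, exact p = 0.486). The positive brain sample at 0 allows a share of up to 0.968%.

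Liver and lung gave few cells. In positive liver the shares were 0.573%, 0.0965%, 0.404% and 2.13%, the last from 2 cells of 94 (exact 95% interval 0.259% to 7.48%). The means were 0.800% ± 0.907 against 0.647% ± 0.468 (n = 4 each, exact p = 0.80). In lung they were 0.0617% ± 0.0781 against 0.0668% ± 0.0919 (n = 4 each, exact p = 1.00). After Benjamini-Hochberg adjustment over the 4 tissues every p was 1.00. The smallest p that 4 samples against 4 allow is 0.0286. The biotin difference of a tissue did not stand apart from that of the others in any of the 4 tests of the difference (exact p of 0.263 to 0.887, adjusted 0.887 each). Intervals and zero limits cover counting error only.

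Within bone, the dividing part of the Fcnb cells below the early granule limit differed between the sorts, but not past the threshold once the cells above that limit were counted too. Below the limit, 81.5%, 84.1%, 83.6% and 82.1% of the Fcnb cells of positive bone (55 to 325 cells a sample) had a Mki67 or Top2a UMI. In untagged bone 68.5%, 75.5%, 79.1% and 77.5% did (127 to 466 cells). All 4 positive samples were above all 4 untagged ones. The means were 82.8% ± 1.24 and 75.1% ± 4.67 (n = 4 each), which is 7.70 points apart (two-sided exact permutation p = 0.0286, the smallest possible), higher in 4 of 4 pairs of the same replicate number. Bone was the only tissue with at least 3 samples of 20 or more Fcnb cells in each sort, so no other tissue was tested and no difference between tissues can be given. Among brain samples, the 3 with at least 20 Fcnb cells had 72.5% (positive replicate 1), 84.8% and 65.6% (untagged replicates 1 and 4).

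The call did not hold in every setting. The dividing Fcnb cells past the early granule limit, left out above, made up 17.7% to 76.8% of all Fcnb cells of the positive and 11.8% to 34.0% of those of the untagged bone samples. With the cells past the limit kept, the fractions were 84.8%, 89.9%, 96.2% and 93.2% against 72.2%, 80.1%, 86.0% and 84.0%, which overlap, a difference of 10.4 (n = 4 each, exact p = 0.0571). With 1 Fcnb UMI as the threshold the difference was 6.64 (n = 4 each, exact p = 0.0571), and the samples overlapped. The exact paired sign-flip test gave p = 0.125, the smallest that 4 pairs allow. Leaving out any 1 positive sample gave differences of 7.27 to 8.14 (exact p = 0.0571, n = 3 and 4). The median depth of Fcnb cells was 16801 to 26170 UMIs in the positive and 15472 to 22522 in the untagged samples. After every cell had been thinned to 5000 UMIs the fractions were 82.3%, 86.4%, 84.7% and 85.7% against 57.8%, 80.3%, 73.9% and 77.7%, a difference of 12.3 (n = 4 each, exact p = 0.0286). Thinning to 2000 UMIs with lower thresholds gave 13.5 (exact p = 0.171, n = 4 each). Among Fcnb cells with 10 or more Ngp UMIs the fractions were 82.0%, 84.7%, 82.7% and 81.6% against 52.6%, 73.6%, 78.7% and 77.3%, a difference of 12.2 (n = 4 each, exact p = 0.0286). Untagged replicate 1 was the lowest in each of these settings, and without it the difference of 7.70 was 5.49.

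**Figure D5:**
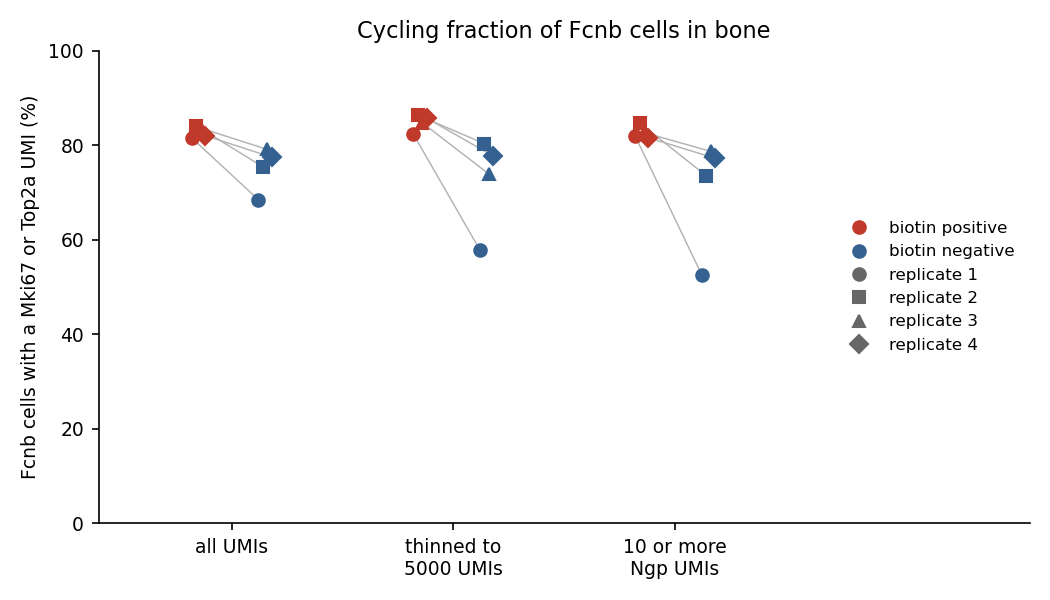
Percentage of Fcnb cells below the early granule limit with a Mki67 or Top2a UMI (y) in the 4 positive (red) and 4 untagged (blue) bone samples, with all UMIs, after thinning each cell to 5000 UMIs, and for cells with 10 or more Ngp UMIs; grey lines join samples of the same replicate number. The positive samples lie between 81.5% and 86.4% and above every untagged sample in the 3 settings drawn; in settings not drawn (1 Fcnb UMI, or cells past the early granule limit kept) the sorts overlap.

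Gene levels inside the cycling Fcnb cells were then compared between positive and untagged bone. Across 9400 genes, edgeR's quasi-likelihood test on the summed counts of the 13 samples called 1 gene at an adjusted p under 0.05 (0.0106% of genes). DESeq2 called 13 genes, and 6.63% of genes were under 0.05 before adjustment in edgeR. After TMM scaling (a scaling of each sample by its typical gene), samples of the 2 sorts did not overlap for 383 genes (4.07%), with 1.85% of all genes higher and 2.22% lower in the positive sort.

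The gene called was Apoc2, which encodes an apolipoprotein that activates lipoprotein lipase (chr7:19671579-19677941, minus strand, GRCm38). Its level in positive bone was 13.1, 18.4, 12.9 and 9.10 CPM and in untagged bone 66.0, 45.9, 34.2 and 28.4 CPM, with no overlap. The log2 difference was -1.63 (SE 0.22, edgeR adjusted p = 0.0245). Apoc2 overlaps Gm44805 on the same strand, so its count is uncertain. A UMI of Apoc2 was found in 74.1% of the low-Ngp cells and 15.7% of the others. With the low-Ngp cells left out the difference was -1.36 and edgeR called no gene without the replicate block (adjusted p of Apoc2 1.00), and 9 genes with it, not Apoc2. Among the other settings, edgeR's adjusted p of Apoc2 was above 0.05 in a fit of the bone samples alone (0.0587), without the top Scrublet cells (0.490), and when any 1 of positive replicates 1, 3 and 4 or untagged replicates 2 and 3 was left out (0.0744 to 0.473).

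The monocyte list moved with the low-Ngp share in bone. Its summed level was 148, 159, 266 and 109 CPM in the positive and 1726, 483, 323 and 195 CPM in the untagged samples. All 6 of its genes that were tested had a log2 difference below 0, with a median of -1.70 beside 0.00 for all genes tested. edgeR called none of them and DESeq2 called Ccr2. Without the low-Ngp cells 7 of 8 were below 0, with a median of -0.81. Ccr2 had 30.4, 25.8, 48.2 and 17.1 CPM against 462, 99.3, 71.0 and 53.5 (log2 difference -2.22, SE 0.48, edgeR adjusted p = 0.507), and its samples did not overlap. Ly86 was at -1.83 (SE 0.49), Vcan at -2.07 (SE 0.59) and F13a1 at -1.56 (SE 0.47), each with an edgeR adjusted p of 0.507. The differences were smaller without untagged replicate 1, where Ccr2 was at -1.45, Ly86 at -1.17, Vcan at -1.70 and F13a1 at -0.90.

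Cebpe and the granule genes outside the rule did not pass in this comparison. The rule's own genes chose the cells, so their levels are a description without a test. Fcnb had 795, 608, 633 and 628 CPM in positive and 439, 613, 535 and 510.4 in untagged bone (log2 difference 0.36, SE 0.22). Cebpe had 582, 330.5, 470.5 and 714 against 207, 309, 402 and 625 CPM (0.42, SE 0.38, edgeR adjusted p = 0.890). Mki67 was at 0.18 (SE 0.16) and Top2a at 0.12 (SE 0.14). Of the specific granule genes 10 of 12 were above 0 with a median of 0.30, and of the G2/M genes 26 of 28 with a median of 0.13, none of them called and none with an unadjusted p under 0.05 in the G2/M list. Of the G1/S genes 10 of 24 were above 0 (median -0.03). Without the low-Ngp cells the leanings were not kept: 2 of 12 specific granule genes (median -0.07) and 16 of 28 G2/M genes (median 0.02) were above 0.

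Genes outside the neutrophil programme were seen in some positive bone samples. The MHC class II gene H2-Eb1 had 54.3 CPM in positive replicate 1 and as little as 7.50 CPM in the other positive samples, against 4.22 to 10.7 CPM in the untagged ones. The sorts thus overlapped in CPM and were apart only after TMM scaling. The log2 difference was 1.99 (SE 0.52, edgeR adjusted p = 0.507), 0.66 without positive replicate 1 and 2.12 without the low-Ngp cells. Of the macrophage list 6 of 7 tested genes were above 0 with a median of 1.73, and all 4 tested erythroid genes were, with a median of 4.19. Without the low-Ngp cells the medians were 1.69 and 4.74. In the fit of those cells blocked by replicate number, edgeR called the haemoglobin genes Hba-a1 (log2 difference 5.11, adjusted p = 0.0372) and Hba-a2 (5.48, adjusted p = 0.0106) and the adhesion gene Vcam1 (1.34, adjusted p = 0.0372). The UMIs of Hba-a2 were 3, 64, 0 and 0 in the positive and 0, 3, 0 and 1 in the untagged samples, so most came from positive replicate 2. Those of Vcam1 were 356, 74, 7 and 25 against 8, 77, 28 and 81. Also called were Iglv1 and Mzb1 (higher) and Cxcl10, Tmsb10, Iglc1 and Igha (lower). The plasma cell genes among these rested on single cells. Of the 10380 Iglc1 UMIs in all cycling Fcnb cells of untagged replicate 4 (1103 CPM) 10348 lay in 1 cell, as did 2596 of 2617 Igha UMIs. In positive replicate 4 a single cell held 102 of 103 Iglv1 UMIs, and 127 of 129 Mzb1 UMIs lay in 1 cell. The macrophage sum was 199, 229, 20.4 and 16.1 CPM in the positive and 16.3, 100.1, 19.1 and 13.2 in the untagged samples. The erythroid sum was 134 CPM in positive replicate 2, 13.1 in positive replicate 1 and at most 3.61 in the other bone samples. The part of other cells' RNA in these values was not tested. Csf3r, the receptor of the granulocyte growth factor, did not overlap between the sorts (0.37, SE 0.16). The stem cell factor receptor gene Kit was apart only after TMM scaling, with 3.75 to 14.1 CPM against 2.78 to 5.03 before it (log2 difference 1.34, SE 0.38). It was 0.83 without positive replicate 1 and 0.99 without the low-Ngp cells. The edgeR adjusted p was 0.688 for Csf3r and 0.507 for Kit.

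Cycling Fcnb cells of untagged bone were also compared with those of untagged brain and liver, where 2 samples each had at least 10 of them (167 and 147 cells in brain, 16 and 17 in liver). edgeR called 0 of 9400 genes (0% of genes). Before adjustment 545 genes (5.8%) were under 0.05, and DESeq2 called 7. In the fit blocked by replicate number 9 genes were called, Dusp1, Klf2, Zfp36, Osm, Pmaip1, Nr4a1 and Hspa1a among them. The fit without the block called 60 when untagged bone replicate 1 was left out, and 5 without untagged brain replicate 4. After TMM scaling samples did not overlap for 227 genes (2.41%), with 1.51% of all genes higher and 0.904% lower in bone.

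Klf2 and Dusp1, called only in the blocked fit and some other settings, had lower levels in bone. Klf2, a transcription factor of quiescence and adhesion, had 127, 122, 109 and 181 CPM in the 4 untagged bone samples, 465 and 358 CPM in brain, and in liver 537 and 335 CPM. The lowest sample outside bone was above the highest in bone. The log2 difference was -1.45 (SE 0.23, edgeR adjusted p = 0.0623, and 0.0481 with the block). Dusp1, a phosphatase of MAP kinases, had 86.7, 89.0, 32.2 and 39.6 CPM in bone, 173 and 217 in brain, and for liver 186 and 243. Its log2 difference was -1.66 (SE 0.34, edgeR adjusted p = 0.276, and 0.0123 by edgeR with the block). Dusp1 overlaps AC122252.4 and AC122252.1 on the same strand, so its count is uncertain. Fos overlapped, with 140.3 to 504 CPM in bone and 358 to 1048 CPM outside it (-1.16, SE 0.28, edgeR adjusted p = 0.654). Btg2, a gene that slows division, was at -1.11 (SE 0.34, edgeR adjusted p = 0.832), and its samples overlapped before TMM scaling. Of cells with 10 or more Ngp UMIs untagged liver replicate 1 had 7, below the limit of 10 cells, so liver left the comparison. For bone against brain with these cells, edgeR called Klf2 alone (-1.56, adjusted p = 0.0476), and 30 genes with the block.

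The cycle lists leaned in opposite directions in that comparison, with no gene called. Of the G2/M genes 26 of 28 were above 0 in bone with a median of 0.36, and 11 had an unadjusted p under 0.05. Ccnb1, the mitotic cyclin, was at 0.69 (SE 0.19, edgeR adjusted p = 0.747), and the kinase gene Aurkb was at 0.41 (SE 0.14). These and the centromere motor gene Cenpe (0.25, SE 0.15) were the 3 of the list whose samples did not overlap after TMM scaling; before it Aurkb and Cenpe overlapped. This stands beside 1.51% of all genes in that direction. Of the G1/S genes 20 of 24 were below 0 with a median of -0.24, beside 0.03 for all genes tested. Without the low-Ngp cells liver dropped out, as above, and bone was set against brain alone. There 28 of 28 G2/M genes were above 0 (median 0.21) and 23 of 24 G1/S genes below 0 (median -0.29). Cebpe was at 0.31 (SE 0.38), within the spread between samples. Fcnb was at 0.36 (SE 0.23), Mki67 at 0.03 (SE 0.16) and Top2a at 0.19 (SE 0.14), a description only, since these genes chose the cells. The antigen presentation gene Cd74 was at -1.63 (SE 0.49) without overlap. Without the top Scrublet cells the sign turned to 1.41 and the samples overlapped, with 8.53 to 33.8 CPM for bone and 2.71 to 11.7 CPM for liver.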

How the data were processed

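Single-cell 3′ RNA-seq of 32 intracardiac samples was used; 1 pooled bone sample of another injection was not used here. The authors deposited raw UMI counts per gene and cell, written by cellranger 6.1.2 per the file headers, and the submitters' processing notes name Cell Ranger, Seurat and the build mm10. Each matrix lists 32285 genes. Of 57065 barcodes, 55366 were kept (at least 500 UMIs and 200 genes, at most 15% mitochondrial UMIs).

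The cells, the gene lists and the comparisons were chosen with earlier results of these data known. Counts of the chosen cells were summed per sample (at least 10 cells) and tested with edgeR 4.0.16 (R 4.3.3, TMM, filterByExpr, 1 term per group, Benjamini-Hochberg over 9400 genes), with DESeq2 1.42.0 as an alternative. Scripts were tested on simulated data. Shares of cells were compared over samples by exact permutation tests (scipy 1.17.1). Doublet scores came from Scrublet in scanpy 1.11.5. Intervals are exact binomial at 0.95, and a zero limit is 3 cells of the total. Thinning drew each cell to 5000 UMIs, leaving out 1658 of 4515 positive and 3706 of 11482 untagged bone cells.

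Same-numbered bone samples deviated together (correlations of 0.202, 0.387, 0.150 and 0.396 over 9400 genes). Numbers were therefore taken as pairs in the sign-flip tests, the tests of the difference between tissues and the replicate block. The main permutation tests and the main edgeR fits did not use the pairing. The tag lists do not separate numbers 3 and 4. Named genes were those called without overlap between groups (up to 12 each way), the 15 leading genes against other cells (10 CPM added, detected in at least 20% of cells, outside the rule), and list genes that passed or were highest in their list. Other list genes, the low-Ngp genes, Klf2, Dusp1, Fos, Btg2, Kit, Csf3r, H2-Eb1, Cd74 and the genes of the blocked fits were chosen after their values were seen. Promoters are from RefSeq (27025 genes).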

Additional observations from a re-analysis of the deposited data

Results flagged for a closer look

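In 4 of the 22 groups of 4 samples checked, 1 sample stood far from the other 3, where chance gives about 1 in 20 groups. Untagged bone replicate 1 did so in the percentage of cycling Fcnb cells with fewer than 10 Ngp UMIs, at 65.5% against 7.76% to 14.8%. The same sample stood apart in the summed G1/S list of its cycling Fcnb cells, at 2210 CPM against 1120 to 1184 CPM. The part of the low-Ngp cells in that G1/S level was not tested. Positive brain replicate 1 had a share of cycling Fcnb cells of 5.25% against 0% to 0.897%. Untagged liver replicate 4 had a share of 1.34% against 0.321% to 0.475%.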

How the results depend on the processing

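The differences in share between the sorts were smaller than the spread between samples, and their sign changed with the setting. In bone the difference of 0.750 was -0.162 with 1 Fcnb UMI and -2.19 among neutrophil-lineage cells, and -0.882 to 1.79 with single samples left out. In liver 0.154 became -0.113 with 1 Fcnb UMI, -0.244 and -0.184 after thinning to 5000 and 2000 UMIs, and -0.289 to 0.388 with single samples left out. In lung -0.00506 became 0.0497 with 1 and 0.00155 with 4 Fcnb UMIs, 0.000632 with 2 proliferation UMIs, 5.43 among lineage cells, and -0.0387 to 0.0376 with single samples left out. In brain -1.86 became 10.4 among lineage cells, but -3.10 there without positive replicate 2, in which 2 of only 3 lineage cells met the rule. The dividing fraction of Fcnb cells in bone (7.70) was 6.64 with 1 Fcnb UMI (exact p = 0.0571), 10.4 with the cells past the early granule limit kept, a setting chosen after seeing the data (exact p = 0.0571), 13.5 after thinning to 2000 UMIs, 5.49 to 9.03 with single samples left out, and 7.70 with an exact p of 0.125 in the paired test; untagged bone against other tissues (6.15) was likewise at 0.125 there.

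For positive against untagged bone, 1 gene was called, against 13 by DESeq2, 116 without a filter, 0 in a fit of the bone samples alone or without the top Scrublet cells, 0 with only cells of 10 or more Ngp UMIs, a setting chosen after seeing the data (9 with the replicate block), and 0 to 2 with single samples left out. The block alone gave 1. For untagged bone against brain and liver, 0 became 7 by DESeq2, 18 without a filter, 9 with the block, and 0 to 60 with single bone samples left out. With only Ngp cells, where liver dropped out, the count was 1 (30 with the block). In the full comparison Cd74 turned to 1.41 without the top Scrublet cells. With at least 20 cells a sample, or with only Ngp cells, liver dropped out, so those fits set bone against brain alone. Mki67 (0.03) was at -0.013 and -0.0387 in them, and at -0.0691 to 0.144 with single samples left out of the full comparison. Cebpe (0.31) was -0.0514, -0.161 and -0.0994 to 0.669 in the same settings. The causes were not tested. The block changed no other call of a share or count. No liver or lung sample holds more than 17 such cells, which limits their shares, and 3 or 4 samples a group limit the exact p of the comparisons of sorts.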
